A study of Mus musculus with 15 samples.

Results

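Expression of 8 genes of the gastric and foregut epithelium was measured in colon cancer organoids: the transcription factor gene Sox2, the mucin genes Muc5ac and Muc6, the trefoil peptide genes Tff1 and Tff2, the claudin gene Cldn18, the annexin gene Anxa10 and the adhesion gene Vsig1. The 8 were taken by Ensembl identifier from a count table of 54418 genes. The 15 RNA-seq libraries come from mouse organoids of the AKP genotype (usually read as mutant in Apc and Trp53 among others; the label gives the abbreviation), a state that every group shares, after transplantation into the colons of C57Bl6 mice with intact immunity. Organoids were cultured again from liver metastases of transplant rounds 1, 2 and 3 (Met1, Met2 and Met3) and from primary tumours of rounds 2 and 3 (Primary2 and Primary3). Each group holds 3 libraries, and no primary tumour group of round 1 was analysed here. The labels give no age, and the origin of the replicates (mice, organoid lines or repeat cultures) is not stated, so p-values here cover only the spread between these libraries, which may be technical. The series is titled for loss of GATA6, a transcription factor of endoderm, in metastasis of colorectal cancer.

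The gut tube is patterned along its length, and the stomach and the colon keep different sets of secreted and junctional proteins. SOX2 marks foregut endoderm, from which oesophagus and stomach arise, whereas CDX2 and related factors mark the intestine. The surface of the gastric mucosa secretes MUC5AC together with the trefoil peptide TFF1, and the deeper neck and gland cells secrete MUC6 together with TFF2. The colon instead secretes MUC2 and TFF3, and expression of gastric genes in colorectal tumours is a known form of altered lineage identity.

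Library totals ran from 14122203 to 21306543 counts, and 1 count was worth 0.0457 to 0.0734 CPM (the normalised read count used here, scaled by edgeR's TMM factors). The share of an rRNA gene was 2.01% to 3.73% in Met1, 6.24% to 7.52% in Met2 and 3.38% to 7.03% over the other 3 groups. Its part in the results below was not tested. Epithelial markers (Epcam, Cdh1, Krt8, Krt18, Krt19, Cldn7) were summed at 5511 to 14908 CPM in every library. The colon's own goblet products were close to 0 in all 15 libraries, with Muc2 at no more than 0.514 CPM and Tff3 at no more than 0.288 CPM. Met2 replicate 1 stood apart from the other libraries: its correlations with the other 2 Met2 replicates were 0.921 and 0.934, against 0.971 to 0.989 for the replicate pairs of the other groups and of Met2 without it. Values with and without it are given below. In bulk libraries of this kind, fewer cells of a type and less RNA per cell cannot be told apart.

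Start regions of the 3 members that differed between metastasis and primary organoids are shown first, because 2 of them rose and the other fell. The windows are RefSeq sequence of GRCm38.p6 from 250 bases before to 50 bases after the start, written 5′ to 3′ on the gene's strand. Capitals mark matches on either strand to a GATA-factor motif, spelled AGATAA with its variants AGATAG and likewise TGATAA followed by TGATAG, or to a CDX-factor motif, spelled TTTATG with its variant TTTATT. The Anxa10 window lies at chr8:62123144-62123443 on the minus strand, the Vsig1 window at chrX:140907358-140907657 on the plus strand, and the windows of Cldn18 at chr9:99717218-99717517 (upstream start) and chr9:99710014-99710313 (downstream start) on the minus strand.
Anxa10: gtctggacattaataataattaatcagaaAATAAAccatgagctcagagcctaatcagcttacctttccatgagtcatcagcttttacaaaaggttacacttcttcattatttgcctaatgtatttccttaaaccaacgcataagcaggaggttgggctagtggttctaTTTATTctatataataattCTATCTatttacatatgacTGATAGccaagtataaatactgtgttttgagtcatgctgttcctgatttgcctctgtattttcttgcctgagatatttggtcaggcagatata
Vsig1: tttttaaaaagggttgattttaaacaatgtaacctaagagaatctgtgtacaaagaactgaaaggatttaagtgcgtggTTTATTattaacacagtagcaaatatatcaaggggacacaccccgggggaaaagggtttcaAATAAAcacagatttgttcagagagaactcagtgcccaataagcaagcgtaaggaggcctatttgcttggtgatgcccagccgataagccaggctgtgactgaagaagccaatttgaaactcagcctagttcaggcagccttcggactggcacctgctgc
Cldn18 upstream start: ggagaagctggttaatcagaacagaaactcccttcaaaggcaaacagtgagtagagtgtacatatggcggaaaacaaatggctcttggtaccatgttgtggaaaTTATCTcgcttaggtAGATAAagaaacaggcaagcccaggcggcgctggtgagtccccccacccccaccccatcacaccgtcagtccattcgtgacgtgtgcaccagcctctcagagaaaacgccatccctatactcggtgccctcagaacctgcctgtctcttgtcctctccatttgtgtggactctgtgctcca
Cldn18 downstream start: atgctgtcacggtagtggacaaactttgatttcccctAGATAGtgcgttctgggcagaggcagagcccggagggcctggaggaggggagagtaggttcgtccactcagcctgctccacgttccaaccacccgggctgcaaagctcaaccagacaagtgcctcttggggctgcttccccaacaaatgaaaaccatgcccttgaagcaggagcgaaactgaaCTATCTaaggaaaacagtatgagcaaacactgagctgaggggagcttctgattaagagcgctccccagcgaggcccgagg
The Anxa10 window holds 2 GATA matches (at -62 and -43 from the start) and 2 CDX matches (at -221 and -81). The Vsig1 window holds 2 CDX matches (at -171 and -110) and 0 GATA matches. Each Cldn18 window holds 2 GATA matches and 0 CDX matches. Among 32851 RefSeq promoter windows of the same length, 29.8% hold a GATA match, 27.6% a CDX match and 11.2% both, so such matches are common and describe only these letters. No match overlaps another in the 4 windows. Sequences were found for 5 of the 8 members, with none for Muc5ac, Tff1 and Tff2.

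Sox2 encodes the HMG-box factor of foregut endoderm and is a single-exon gene at chr3:34650405-34652461 (GRCm38, plus strand, ENSMUSG00000074637). Its RNA was found in quantity in 1 library of the series. Sox2 measured 136 CPM (2028 counts) in Met2 replicate 1, with 0 in the other 2 Met2 libraries. In Met1 its values were 8.16, 0 and 0.0914 CPM, the first of these from 163 counts. In Met3 they were 0, 0.0576 and 0.209 CPM, at most 4 counts in a library. All 3 Primary2 libraries had no Sox2 count, and Primary3 had 1 count in 1 library. The gene was therefore high in 1 metastasis library, low in 1 more, and at or near 0 in 13. Sox2 did not pass the filter on low counts, because too few libraries of any group held it. Between the 6 metastasis libraries of rounds 2 and 3 and the 6 primary libraries, mean log2(CPM + 1) differed by 1.23 (exact two-sided permutation p = 0.303). With nearly all counts in 1 library, this test could not reach p under 0.05 for any split, so it cannot tell whether the groups differ. The noncoding gene Sox2ot, which spans Sox2 on the same strand, reached 0.87 CPM at most.

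The library with Sox2 also differed in other transcription factor genes of the gut, which were chosen after its values were seen. Met2 replicate 1 had 0 CPM of Hnf4a, against 15.6 and 6.97 CPM in Met2 replicates 2 and 3. Foxa3 stood at 0.736 CPM in it, against 21.2 and 5.43 CPM in those 2 libraries. Gata4 was at 0 CPM in it, against 2.25 and 12.5 CPM in those 2. No Met1 or primary library exceeded 0.161 CPM of Gata4 either. Foxa2, a factor of early endoderm, stood at 23.7 CPM there, and the junction gene Cldn6 at 24.8 CPM. The intestinal products Lgals4 and Cdh17 stood at 9.5 and 77.1 CPM in it. Cdx2, the mark of the intestine, was at 72.4 CPM there, above every primary library (13.0 to 30.0 CPM). Sox21 and Foxa1 stood at 75.7 and 79.4 CPM, beside 55.3 and 59.2 CPM and 82.5 and 86.9 CPM in the other 2 Met2 libraries. Among the members, the same library held no Muc5ac and 1 CPM of Vsig1, the lowest values of these genes in Met2. It held 4.82 CPM of Tff2, the highest value in Met2. Summed fibroblast markers reached 5.15 CPM in Met2 replicate 1 and no more than 0.701 CPM in any other library, and their part in these values was not tested.

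**Figure D1:**
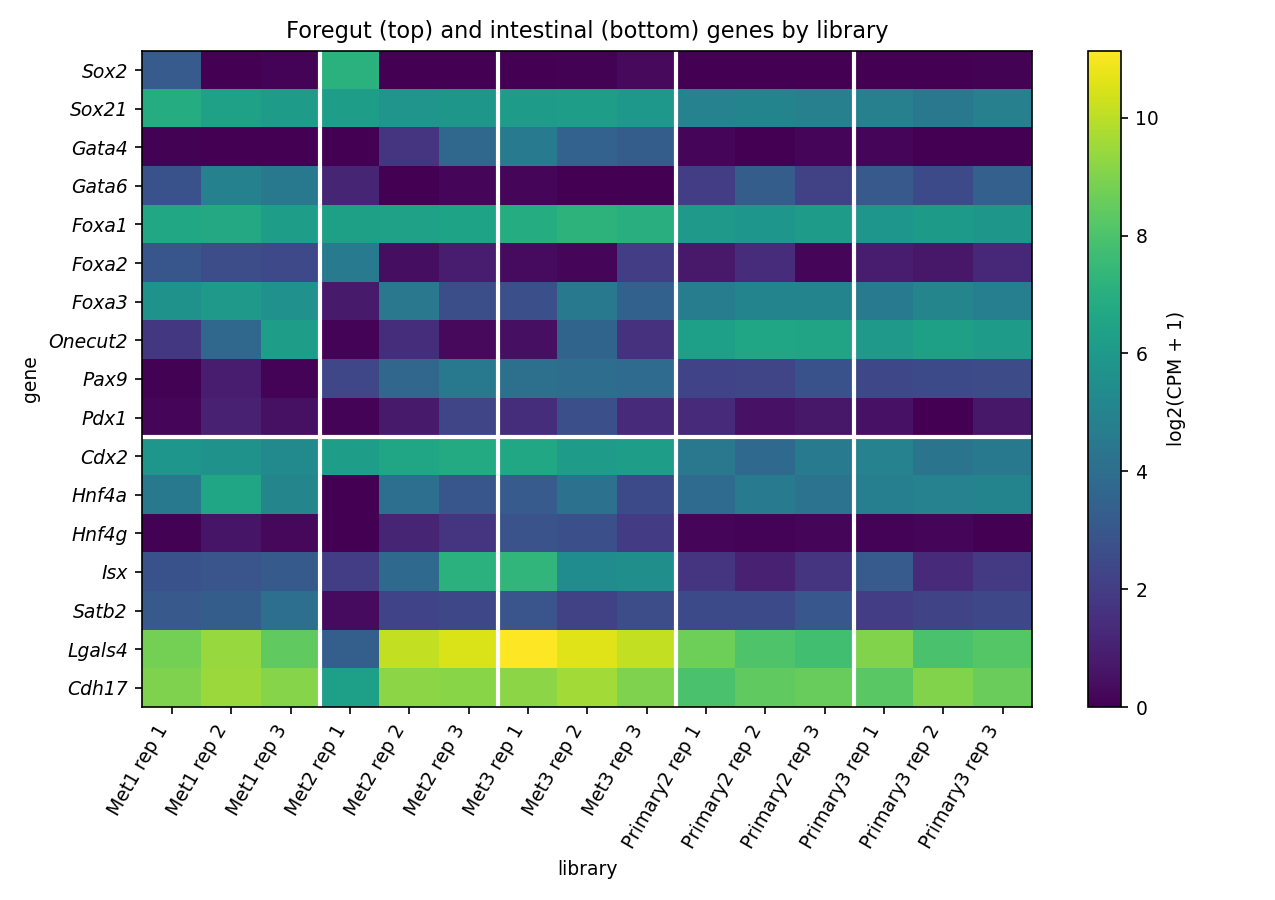
Levels of foregut genes (rows above the white line) and intestinal genes (rows below) in the 15 libraries (columns, grouped by white lines), as log2(CPM + 1) on the colour scale. Met2 replicate 1 carries Sox2 and lacks Hnf4a. Gata4 is at 0 there and at most 0.161 CPM in Met1 and the primary groups. Gata6 is at most 1.20 CPM in Met2 and Met3.

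Muc5ac encodes the gel-forming mucin of gastric surface cells and lies at chr7:141788972-141819231 (plus strand, ENSMUSG00000037974). It measured 34.0, 33.6 and 46.4 CPM in the 3 Met3 libraries. In Met2 it measured 0, 5.28 and 179 CPM. Met1 was almost without it, at 0.2, 0 and 0.183 CPM. Primary2 had 0.751, 0.185 and 11.8 CPM, and Primary3 had 22.4, 4.81 and 16.6 CPM. Met3 was thus evenly high, Met2 covered the whole range of the series, and Met1 was the lowest group. Group means were 61.3 ± 102 CPM in Met2, 38.0 ± 7.30 in Met3, 14.6 ± 8.94 in Primary3, 4.26 ± 6.57 in Primary2 and 0.128 ± 0.111 in Met1 (SD, n = 3 each). Of the neighbours in this order only Met3 and Primary3 had libraries that did not overlap.

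Muc6 encodes the mucin of gastric neck and pyloric gland cells (chr7:141633456-141655319, minus strand, ENSMUSG00000048191). It had 4 counts over all 15 libraries, 1 each in Met3 replicate 1, Primary2 replicates 1 and 3 and Primary3 replicate 2, or 0.0642 CPM at most. The remaining 11 libraries had none, which at the floor of 3 counts allows up to 0.137 to 0.22 CPM. The gland-type mucin was therefore not detectable above single counts in any group. An exact two-sided permutation test of metastasis against primary libraries gave p = 0.424. With only 4 counts it could not reach p under 0.05 for any split, so it cannot tell whether the groups differ.

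Muc6, Muc2, Muc5ac and Muc5b form 1 cluster of secreted mucin genes that spans 239.6 kb of chromosome 7. Within it Muc5ac was the only gene above 1 CPM in any library: Muc2 ran from 0 to 0.514 CPM and Muc5b, the mucin of airway and salivary glands, from 0 to 0.706 CPM. Muc5b starts 50.1 kb beyond the start of Muc5ac and the start of Muc2 lies at -98.6 kb on the same scale.

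Tff1 encodes the trefoil peptide that surface cells of the stomach secrete with MUC5AC (chr17:31161395-31165277, minus strand, ENSMUSG00000024032). It was the most abundant member per length: per kb of exon, its median over the libraries was 54.2 CPM and its highest value 604 CPM, against highest values of 66.0 CPM per kb for Sox2 (in Met2 replicate 1), 27.3 CPM per kb for Tff2 and 16.6 CPM per kb for Muc5ac. Tff1 measured 22.9, 130 and 425 CPM in Met3 and 30.1, 60.4 and 202 CPM in Met2. Primary2 had 129, 18.3 and 38.1 CPM, and Primary3 had 44.0, 60.7 and 13.9 CPM. Met1 had 1.80, 3.65 and 4.89 CPM. All Met1 libraries lay below all 12 others, while the other 4 groups overlapped. Group means were 193 ± 208 CPM in Met3, 97.6 ± 92.0 in Met2, 61.8 ± 59.1 in Primary2, 39.5 ± 23.7 in Primary3 and 3.45 ± 1.55 in Met1 (SD, n = 3 each). An annotated antisense gene over Tff1, Gm15318, ran from 0 to 1.73 CPM. The library kit keeps strand, but whether the counting used it is not given in the sources used here.

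Tff2 encodes the trefoil peptide of gastric neck cells (chr17:31141049-31144282, minus strand, ENSMUSG00000024028). Its values in Primary2 were 15.9, 3.66 and 3.46 CPM, the first of these the highest of the series, and in Primary3 2.02, 2.38 and 0.588 CPM. Met2 had 4.82, 0.0644 and 0.66 CPM and Met3 had 0.108, 0.288 and 1.89 CPM. Met1 had 0, 0.318 and 0.365 CPM, below every primary library. Neighbouring groups in the order of the means (Primary2 7.69 ± 7.15, Met2 1.85 ± 2.59, Primary3 1.66 ± 0.946, Met3 0.760 ± 0.978 and Met1 0.228 ± 0.199 CPM, SD, n = 3 each) all overlapped. The trefoil genes Tff1, Tff2 and Tff3 span 40.0 kb of chromosome 17, and Tff3, which encodes the intestinal trefoil peptide, ran from 0 to 0.288 CPM.

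**Figure D2:**
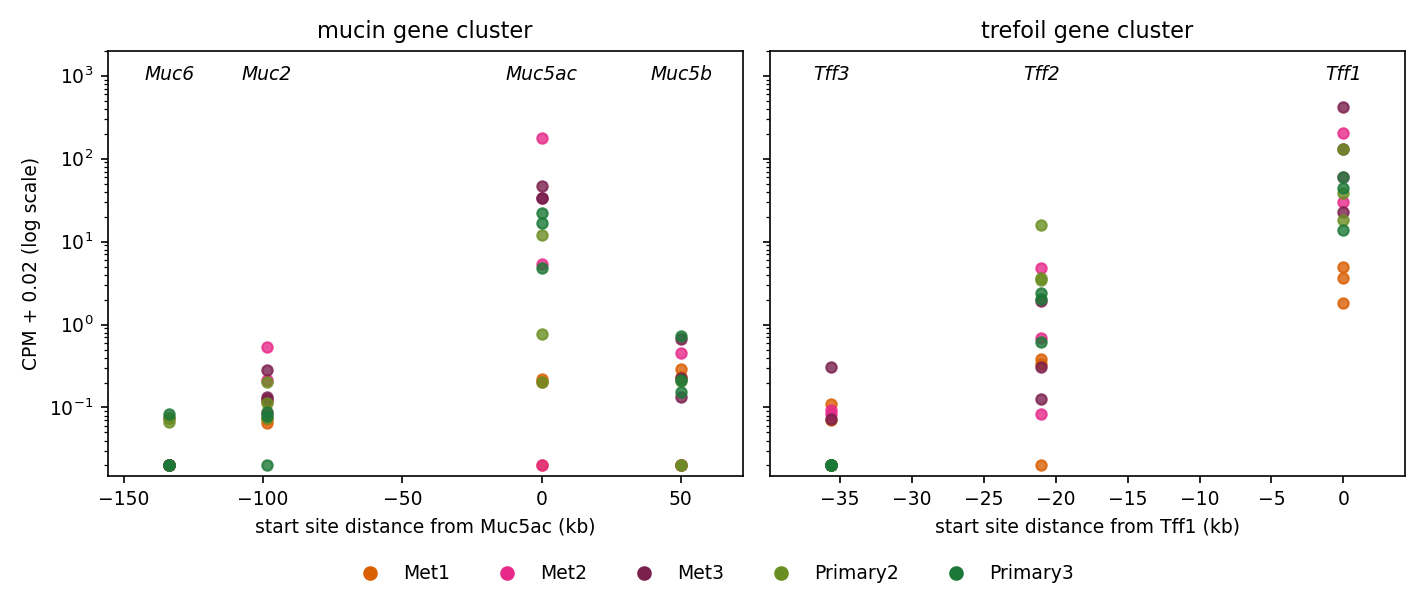
CPM (log scale, 0.02 added) of each gene in the 15 libraries (points, coloured by group) against the distance of its start site from that of Muc5ac (left) or Tff1 (right), in kb. Muc5ac and Tff1 reach the highest values of their clusters, and Muc6, Muc2, Muc5b and Tff3 stay under 1 CPM.

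Cldn18 encodes a tight junction protein with alternative first exons, a lung and a stomach form that gene-level counts do not separate (chr9:99689461-99717267, minus strand, ENSMUSG00000032473). It measured 1.5, 8.79 and 4.84 CPM in Met1. Primary3 had 1.21, 0.899 and 0.941 CPM and Primary2 0.215, 0.463 and 0.521 CPM. Met2 had 0.268, 0.193 and 0 CPM and Met3 0.0538, 0.288 and 0.0524 CPM. Met1 was the highest group with no overlap, Primary3 came next with no overlap, and Primary2, Met2 and Met3 overlapped. Outside Met1 these levels rest on few counts, 0 to 5 per library in Met2 and Met3 and 4 to 18 in the primary groups. Group means were 5.04 ± 3.65 CPM in Met1, 1.02 ± 0.170 in Primary3, 0.399 ± 0.163 in Primary2, 0.154 ± 0.138 in Met2 and 0.131 ± 0.136 in Met3 (SD, n = 3 each).

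Vsig1 encodes an immunoglobulin-type adhesion protein of gastric epithelial junctions (chrX:140907608-140939472, plus strand, ENSMUSG00000031430). It measured 30.9, 46.3 and 7.58 CPM in Met1 and 12.4, 37.8 and 9.9 CPM in Met3. Met2 had 1, 18.1 and 3.45 CPM. Primary2 had 3.11, 3.15 and 1.70 CPM and Primary3 had 0.471, 0.128 and 0.53 CPM. Met1 and Met3 lay above all primary libraries, Met2 straddled Primary2, and Primary3 was the lowest group without overlap. Group means were 28.3 ± 19.5 CPM in Met1, 20.0 ± 15.5 in Met3, 7.52 ± 9.25 in Met2, 2.66 ± 0.823 in Primary2 and 0.376 ± 0.217 in Primary3 (SD, n = 3 each).

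Anxa10 encodes an annexin, a calcium-dependent membrane-binding protein, found in the gastric mucosa (chr8:62057042-62123150, minus strand, ENSMUSG00000031635). It measured 2.10, 27.1 and 4.66 CPM in Met3 and 0.268, 8.18 and 1.54 CPM in Met2. Met1 had 0.40, 2.81 and 0.137 CPM. Primary2 had 0.322, 0.463 and 0.0474 CPM and Primary3 had 0.0673, 0.0642 and 0.177 CPM, that is 1 to 10 counts in each primary library. All Met3 libraries lay above all primary libraries, and neighbouring groups overlapped throughout the order Met3 (11.3 ± 13.8 CPM), Met2 (3.33 ± 4.25), Met1 (1.11 ± 1.47), Primary2 (0.277 ± 0.211) and Primary3 (0.103 ± 0.0640; SD, n = 3 each).

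**Figure D3:**
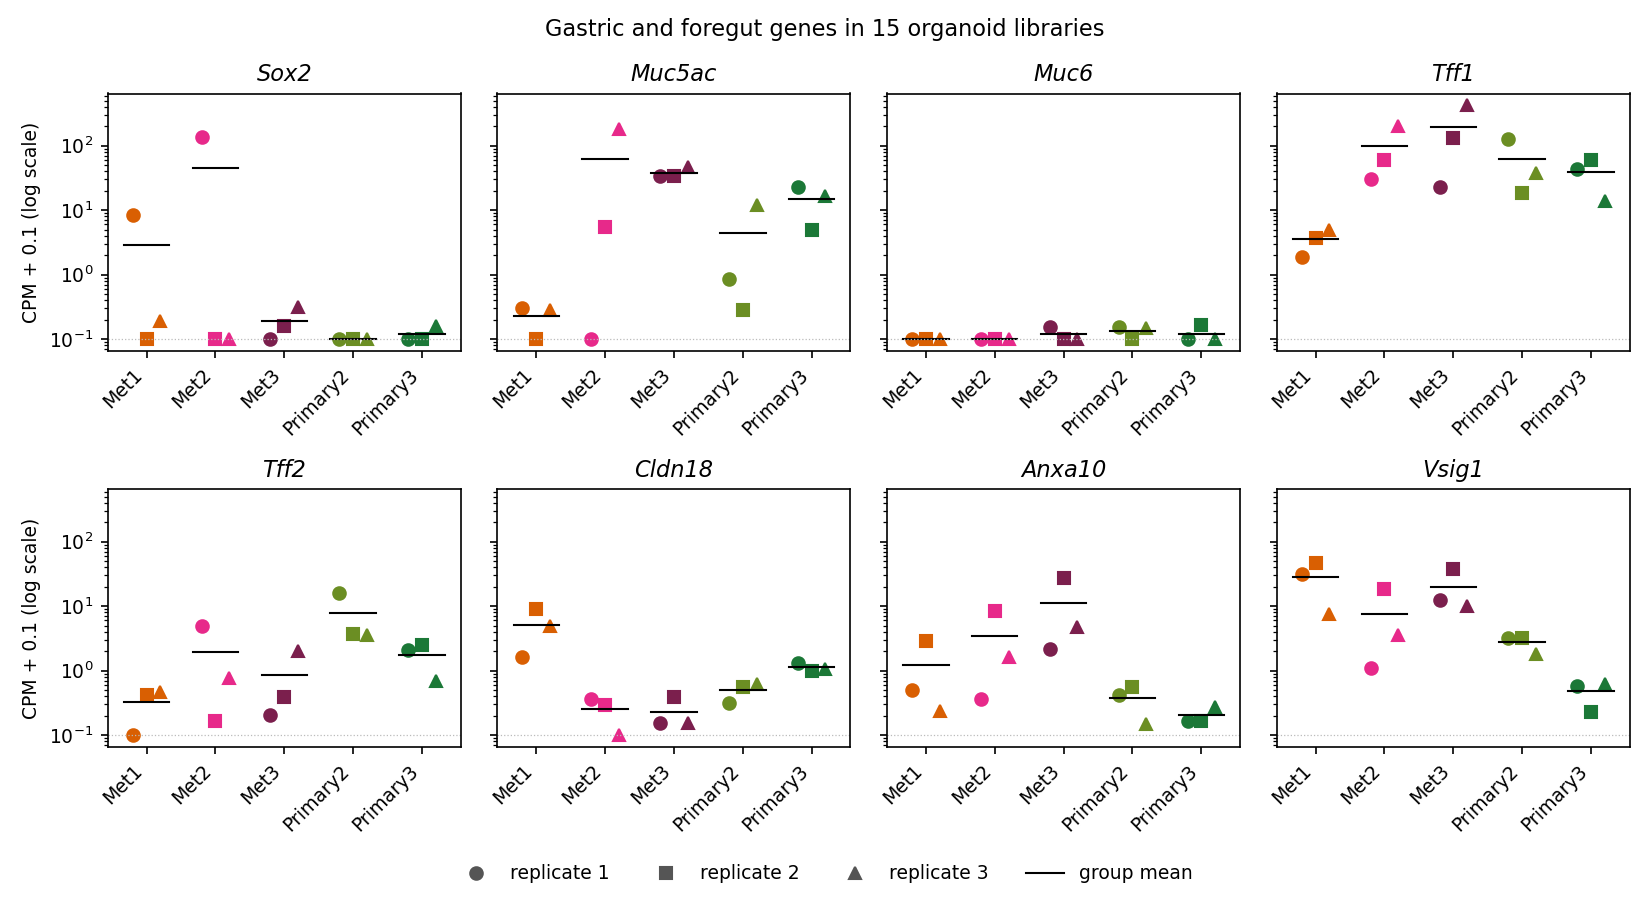
CPM (log scale, 0.1 added, dotted line at 0 counts) of the 8 genes in the 15 libraries; symbols give the replicate number and bars the mean of each group of 3. Tff1 and Muc5ac are lowest in Met1, Cldn18 is highest there, and Anxa10 and Vsig1 are low in both primary groups.

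Averaged over rounds 2 and 3, metastasis organoids carried more Vsig1 and Anxa10 RNA and less Cldn18 RNA than primary organoids. This comparison set the average of Met2 and Met3 against the average of both primary groups, with 6 libraries a side. The labels do not state which primary tumour a metastasis came from. Vsig1 was higher by 3.60 ± 0.72 on the log2 scale (12.1-fold, SE, adjusted p = 0.00287), Anxa10 by 5.11 ± 1.08 (34.5-fold, adjusted p = 0.00391), and Cldn18 fell by 2.12 ± 0.62 (4.33-fold lower, adjusted p = 0.0216; edgeR's quasi-likelihood F test, Benjamini-Hochberg adjustment over 14925 genes). Muc5ac differed by 2.61 ± 1.13 (adjusted p = 0.0965), Tff1 by 1.47 ± 0.70 (adjusted p = 0.128) and Tff2 by -1.58 ± 0.90 (adjusted p = 0.202), and these were not called. Of the 8 members, 6 passed the filter on low counts and 3 were called (adjusted p under 0.05), against 30.4% of all genes tested, 14.3% higher and 16.1% lower. For each of the 6 the libraries of both sides overlapped, the case for all but 12.2% of tested genes. The median change of the 6 was 2.04 and that of all tested genes 0.01.

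The calls of this comparison depended on the test. With limma-voom none of the 6 was called, at adjusted p of 0.05 for Anxa10, 0.0742 for Cldn18 and 0.0758 for Vsig1, and 4 had an unadjusted p under 0.05. No alternative, limma-voom included, called fewer than 3665 genes in this comparison. The adjusted p of Cldn18 became 0.0565 without Met3 replicate 1. Without Met2 replicate 1, Muc5ac (2.92, adjusted p = 0.0219) and Tff2 (-2.74, adjusted p = 0.0311) were also called, and Vsig1 (3.90, adjusted p = 0.000659), Anxa10 (5.42, adjusted p = 0.00148) and Cldn18 (-2.39, adjusted p = 0.0189) were as large as with it. Muc5ac was also called without Primary2 replicate 3 (4.21, adjusted p = 0.0336), and without Met2 replicate 3, the library at 179 CPM, its difference was 0.38 (adjusted p = 0.789). Without Met2 replicate 2, which held the highest Met2 level of both genes, Vsig1 was higher by 2.75 (adjusted p = 0.00565) and Anxa10 by 4.20 (adjusted p = 0.00951). Without Met3 replicate 2 Anxa10 was higher by 4.27 (adjusted p = 0.00909).

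By round, the same 3 genes were called in round 3 and none in round 2, a difference that is tested below. In Met3 against Primary3, Vsig1 was higher by 5.70 ± 1.13 (adjusted p = 0.0057), Anxa10 was higher by 6.66 ± 1.65 (adjusted p = 0.0158) and Cldn18 fell by 2.91 ± 0.87 (adjusted p = 0.0348). The libraries of both groups did not overlap for these 3 genes or for Muc5ac (1.38 ± 1.52, adjusted p = 0.554), against 44.3% of tested genes with no overlap, 21% higher and 23.4% lower. Of all genes tested, 19.1% were called, 8.12% higher and 11% lower. Tff1 differed by 2.29 ± 1.01 (adjusted p = 0.129) and Tff2 by -1.11 ± 1.29 (adjusted p = 0.576). With limma-voom 0 of the 3 calls held, while no alternative called fewer than 1413 genes. The call of Cldn18 was lost without Met3 replicate 1 or 3 or any Primary3 library, at adjusted p of up to 0.126, and that of Anxa10 without Met3 replicate 2 or any Primary3 library, at adjusted p of up to 0.0602. Without Met3 replicate 2, the library with the most Vsig1 and Anxa10 of Met3, the changes were 4.87 for Vsig1, 4.94 for Anxa10 and -4.08 for Cldn18, and without Primary3 replicate 3 Anxa10 was 7.28 higher.

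In round 2 edgeR called 0 members in Met2 against Primary2, with 2 at an unadjusted p under 0.05, where 11.8% of genes were called. Anxa10 was 3.56 ± 1.40 higher (adjusted p = 0.111), Muc5ac 3.84 ± 1.68 (adjusted p = 0.151) and Vsig1 1.5 ± 0.90 (adjusted p = 0.295). Tff1 differed by 0.66 ± 0.97, Cldn18 by -1.32 ± 0.89 and Tff2 by -2.05 ± 1.27. DESeq2 called Anxa10 (adjusted p = 0.0284), and without Met2 replicate 1 edgeR called Muc5ac (4.45, adjusted p = 0.0444). With no filter on low counts Sox2 was called higher (12.66, adjusted p = 0.026), which rests on the single library with 2028 counts. The difference between the rounds was tested itself: edgeR called 0 members and 0% of genes, with 1 member, Vsig1, and 1817 genes at an unadjusted p under 0.05. For Vsig1 the change in round 3 exceeded that in round 2 by 4.20 ± 1.40 (adjusted p = 0.308), and DESeq2 gave an adjusted p of 0.0486 for it.

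**Figure D4:**
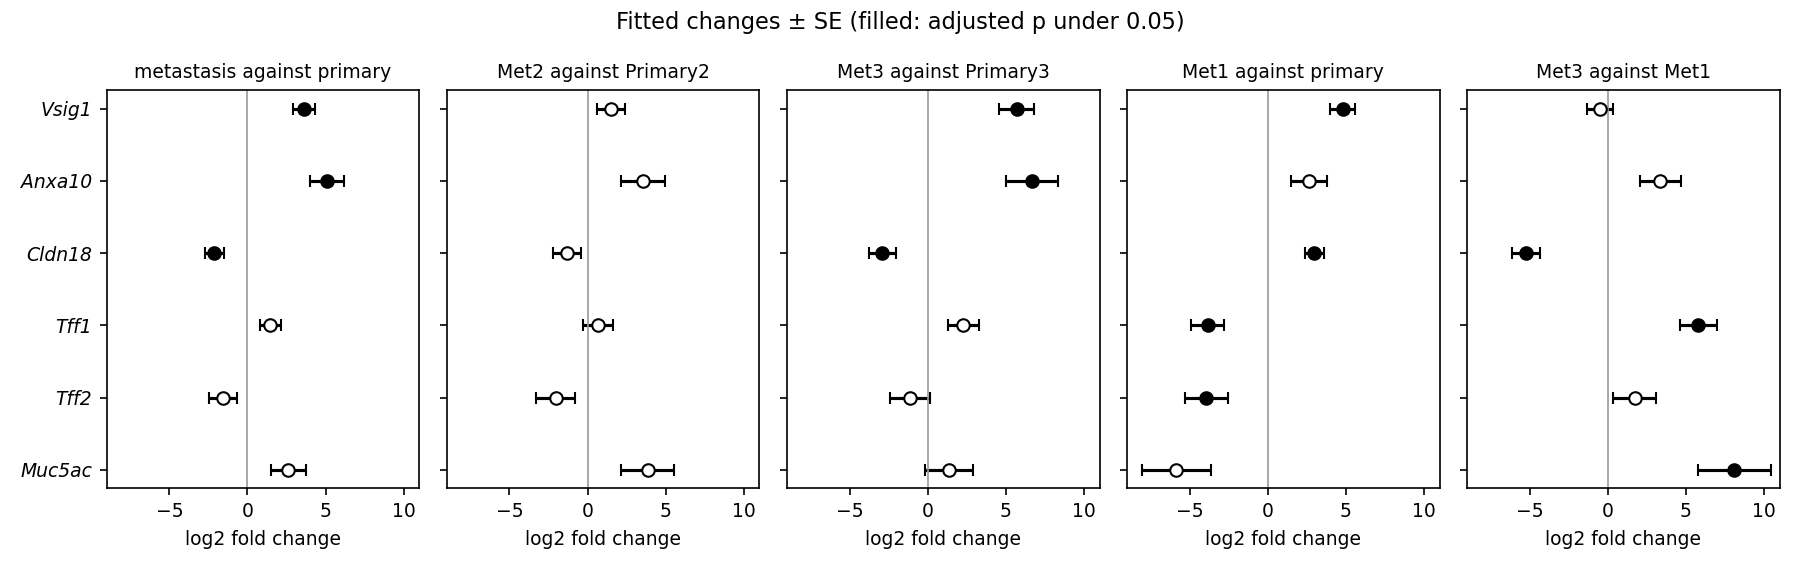
Fitted log2 fold change (horizontal axis) with its SE for the 6 members that passed the filter, in 5 comparisons (panels); filled points had an adjusted p under 0.05. Vsig1 lies right of 0 in the 4 panels against primary organoids, and Cldn18 changes sides between Met1 against primary (2.97) and Met3 against Met1 (-5.21).

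Organoids of the first metastasis round had a different pattern, with Cldn18 high and both trefoil genes low. Met1 was set against the 6 primary libraries of rounds 2 and 3, so source and round differ together and cannot be told apart, and the primary libraries are the same as in the comparison above. Vsig1 was higher by 4.80 ± 0.79 (adjusted p = 0.00156) and Cldn18 by 2.97 ± 0.61 (adjusted p = 0.00432). Tff1 fell by 3.83 ± 1.06 (adjusted p = 0.0178) and Tff2 by 3.92 ± 1.37 (adjusted p = 0.0463). Muc5ac differed by -5.84 ± 2.20 (adjusted p = 0.0619) and Anxa10 by 2.65 ± 1.17 (adjusted p = 0.105). Alb, a hepatocyte marker at no more than 5.65 CPM, was also called higher in Met1 (4.76 ± 1.08, adjusted p = 0.00714), and its part in these changes was not tested. The 4 genes called had libraries that did not overlap, and 29.6% of all genes were called (14.9% higher and 14.7% lower), with 32.5% of genes not overlapping. The call of Tff2 was lost under 12 of 22 alternatives and that of Tff1 with limma-voom (adjusted p = 0.131) and without Met1 replicate 1 (0.0681) or 2 (0.0713). Anxa10 was called higher with DESeq2 (adjusted p = 0.0442) and when only these groups were fitted (0.0475). Sox2, with no filter on low counts, was called higher (7.64, adjusted p = 0.0373), which rests on 163 of its 165 counts in Met1. Without Met1 replicate 2, the highest library for Cldn18, its change was 2.30 (adjusted p = 0.0362). Muc5ac was called lower without Met2 replicate 1 (adjusted p = 0.0218), without Met2 replicate 3 (0.02) and under 4 other settings.

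Between metastasis rounds, the surface mucin and its trefoil partner were higher in the later rounds and Cldn18 was lower. From Met1 to Met3, Muc5ac was higher by 8.10 ± 2.33 (adjusted p = 0.0258) and Tff1 by 5.80 ± 1.21 (adjusted p = 0.00603), and Cldn18 fell by 5.21 ± 0.90 (adjusted p = 0.00294). None of the 3 overlapped, as for 44.5% of tested genes, and 23.4% of genes were called (11.6% higher and 11.8% lower). Anxa10 differed by 3.34 ± 1.31 (adjusted p = 0.0816), Tff2 by 1.71 ± 1.40 and Vsig1 by -0.50 ± 0.85, and these were not called. Muc5ac was not called with limma-voom (adjusted p = 0.156) or without any 1 of the Met1 libraries (adjusted p of 0.0714 to 0.09), and Tff1 was not called with limma-voom (adjusted p = 0.0551). Anxa10 was called with DESeq2 (adjusted p = 0.0253), without Met1 replicate 2 (5.37, adjusted p = 0.0459) and without Met2 replicate 1 (adjusted p = 0.0464). Tff1 was higher by 4.46 without Met3 replicate 3 (adjusted p = 0.0178), and Cldn18 was at -4.55 without Met1 replicate 2 (adjusted p = 0.0121) and -6.40 without Met3 replicate 2 (adjusted p = 0.00634).

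Genes of the gastric surface moved in both directions from Met1 to Met3. Of the 12 gastric surface and pit cell genes listed, 8 were tested, 3 were called higher and 3 lower, with a median change of 0.56 against 0.01 for all tested genes. Over all genes tested 11.6% were called higher and 11.8% lower. Those higher were the members Muc5ac and Tff1 and the surface antigen gene Psca (2.42 ± 0.77, adjusted p = 0.0394). The gastrokine genes Gkn1 and Gkn3, which encode secreted peptides of gastric surface cells, fell by 4.87 ± 1.41 (adjusted p = 0.0265) and by 8.21 ± 1.71 (adjusted p = 0.00605), and the protease gene Ctse fell by 7.12 ± 1.15 (adjusted p = 0.00246). Psca, Gkn1 and Gkn3 were named after their values were seen. Gkn1 measured 5.30, 61.9 and 3.24 CPM in Met1 and 0.269, 1.56 and 0.576 CPM in Met3. In Met2 against Met1, 2 of the 8 were called higher (Muc5ac and Tff1) and 2 lower (Gkn3 and Ctse), against 8.7% and 7.57% of all genes. Without Met2 replicate 1 the counts were 3 higher and 3 lower in Met3 against Met1 and 3 higher and 2 lower in Met2 against Met1.

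Met2 against Met1 shares the Met1 libraries with that comparison. There Muc5ac was higher by 8.79 ± 2.36 (adjusted p = 0.0269) with libraries that overlapped, Tff1 was higher by 4.82 ± 1.16 (adjusted p = 0.0185) and Cldn18 fell by 4.95 ± 0.90 (adjusted p = 0.00763), with 16.3% of genes called (8.7% higher and 7.57% lower) and 32.6% not overlapping. Under limma-voom neither Muc5ac (adjusted p = 0.49) nor Tff1 (adjusted p = 0.107) was called. When the fit held only these 6 libraries, the 3 genes had adjusted p of 0.128, 0.0734 and 0.0844. Without Met2 replicate 3, the library at 179 CPM, the Muc5ac difference was 4.29 (adjusted p = 0.133), and it was not called without any 1 of the Met1 libraries (adjusted p of 0.0723 to 0.101). Tff1 was not called without Met1 replicate 1 (adjusted p = 0.0572) or 2 (adjusted p = 0.0728) and was higher by 3.72 without Met2 replicate 3 (adjusted p = 0.0458). Cldn18 was at -4.28 without Met1 replicate 2 (adjusted p = 0.0315) and -5.54 without Met2 replicate 1 (adjusted p = 0.00851), and Vsig1 was called lower without Met2 replicate 2 (-3.67, adjusted p = 0.0269).

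Met3 against Met2 and Primary3 against Primary2 gave no calls among the members. For Met3 against Met2 edgeR called 0 members, with 0 at an unadjusted p under 0.05, and 0.275% of genes, and DESeq2 and limma-voom called 0 members. For Primary3 against Primary2 edgeR called 0 members and 0% of genes, with 1 member and 1063 genes at an unadjusted p under 0.05, and DESeq2 called 0 members and 44 genes. That member was Vsig1, at -2.79 ± 1.09 (adjusted p = 0.644), whose Primary3 libraries all lay below those of Primary2. Cldn18 was above Primary2 in all Primary3 libraries (1.33 ± 0.77, adjusted p = 0.748) and Tff2 below (-2.21 ± 1.27, adjusted p = 0.746), and 16.7% of tested genes did not overlap there.

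The members did not move as 1 block across the 15 libraries. On log2(CPM + 1), the highest correlations between members were 0.704 for Anxa10 with Vsig1 and 0.657 for Muc5ac with Tff1, and the lowest were -0.733 for Tff1 with Cldn18 and -0.583 for Tff2 with Vsig1. Tff1 and Tff2, 17.1 kb apart, had a correlation of 0.375. These are descriptions over libraries that fall into 5 groups and carry no p-value. Gata6, the gene of the series title, measured 5.96, 28.5 and 21.6 CPM in Met1, 1.20, 0 and 0.147 in Met2, 0.108, 0 and 0 in Met3, 3.11, 8.89 and 3.41 in Primary2 and 7.68, 4.62 and 9.71 in Primary3. Its group order, Met1, Primary3, Primary2, Met2 and Met3, was that of Cldn18, whose last 3 groups overlapped, and their correlation was 0.847. Its correlation was -0.737 with Tff1, -0.623 with Muc5ac, -0.585 with Anxa10, -0.137 with Vsig1 and 0.046 with Tff2. Gata4, which encodes a related factor, had its highest correlation among the members with Muc5ac (0.756), and Cdx2 with Anxa10 (0.598).

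Genes most alike in pattern to each member were taken as the 3 named genes with the highest Pearson correlation of log2(CPM + 1) over the 15 libraries. For Muc5ac they were Rhox5 (0.943), Fam20c (0.936) and Chst4 (0.933), the last encoding a sulfotransferase. Chst4 ran from 10.6 to 17.9 CPM in Met3 and was no higher than 0.45 CPM in Met1. For Tff1 they were Hist1h3g (0.917), Snora17 (0.906) and Slurp1 (0.885), a secreted peptide gene at 33.4 to 111 CPM in Met3 and 0.688 to 1.85 CPM in Met1. For Cldn18 they were Padi3 (0.951), Sh3gl2 (0.946) and Myo10 (0.940), of which Myo10, a filopodial myosin, ran from 64.0 to 160 CPM in Met1 and from 41.9 to 61 CPM elsewhere. For Anxa10 they were Fa2h (0.934), Mocs2 (0.892) and Lrch2 (0.888), for Vsig1 Sf3b1 (0.931), Ipmk (0.917) and Zfp384 (0.912), and for Tff2 Sucla2 (0.884), Tmx1 (0.882) and Phf7 (0.872). With 0.1 in place of 1 as the added constant, 7 of these 18 genes were among the 3 most alike, so most of the names depend on how low values are weighted.

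In the gastric surface list, the 2 genes called in metastasis against primary were lower, and in the gastric gland list 0 were called. These lists include the members Muc5ac, Tff1, Muc6 and Tff2. Of all genes tested, 14.3% were called higher and 16.1% lower. Of 12 gastric surface and pit cell genes, 8 were tested, 0 were called higher and 2 lower by edgeR: Muc1, a membrane mucin, fell by 4.45 ± 0.53 (adjusted p = 0.000143) and Ctse, an endosomal protease abundant in the stomach, fell by 5.28 ± 0.76 (adjusted p = 0.000417). Muc1 stood at 21.2 ± 6.10 CPM in Primary2, 20.3 ± 6.07 in Primary3, 0.539 ± 0.522 in Met2 and 1.67 ± 1.55 in Met3 (SD, n = 3 each), with no overlap. Ctse was at 13.8 ± 5.23 and 12.7 ± 7.84 CPM in Primary2 and Primary3, 0.505 ± 0.377 and 0.211 ± 0.317 CPM in Met2 and Met3, and 31.0 ± 28.2 CPM in Met1. The median change of the 8 was -0.99. Without Met2 replicate 1, a setting chosen after seeing the data, 2 were called higher, the member Muc5ac among them, and 2 lower. Of 12 gastric gland genes of chief, neck and parietal cells, 4 were tested and 0 called by edgeR (0 at an unadjusted p under 0.05), among them Atp4a of the acid pump (-1.51 ± 0.75, adjusted p = 0.146) and Bhlha15 (1.45 ± 0.76, adjusted p = 0.166). Without Met2 replicate 1, 0 were called higher and 1 lower, the member Tff2. In 3 of these 12 genes no library held a count.

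Among foregut transcription factor genes, more were called higher than lower. Of 15 listed, 9 were tested, 4 were called higher and 1 lower in metastasis against primary, with a median change of 1.25. The shares over all genes tested were 14.3% higher and 16.1% lower. Sox21, a relative of Sox2, was higher by 1.25 ± 0.14 (adjusted p = 9.74e-05) and Foxa1, a pioneer factor of endoderm, by 0.76 ± 0.10 (adjusted p = 0.000259), with no overlap of libraries in either. Gata4, the GATA factor of stomach and small intestine, was higher by 6.95 ± 1.16 (adjusted p = 0.00101), at 4.93 ± 6.69 CPM in Met2 and 13.8 ± 7.32 CPM in Met3 and no more than 0.0852 CPM on average in the other 3 groups. Pax9 (1.57 ± 0.45) was the fourth gene higher and Onecut2 (-5.48 ± 0.91) the gene that fell, both named after their values were seen. Without Met2 replicate 1, 5 were called higher and 2 lower.

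Among intestinal identity genes, those called were higher in the same organoids. Of 16 listed, 10 were tested, 4 were called higher and 0 lower by edgeR, with a median change of 0.70. Over all genes tested 14.3% were called higher and 16.1% lower. Cdx2, the intestinal master factor, was higher by 2.03 ± 0.18 (adjusted p = 2.7e-05) with no overlap of libraries, at 92.4 ± 19.1 CPM in Met2 and 80.3 ± 15.6 in Met3 against 18.9 ± 5.13 in Primary2 and 23.4 ± 5.94 in Primary3 (SD, n = 3 each). The homeobox gene Isx was higher by 4.57 ± 0.82 (adjusted p = 0.00159), Hnf4g by 4.59 ± 0.85 (adjusted p = 0.00193), and Gpa33, named after its value was seen, by 0.50 ± 0.17 (adjusted p = 0.0475). Without Met2 replicate 1, 7 were called higher and 0 lower. Averaged over rounds 2 and 3, Anxa10, Vsig1 and Cdx2 were thus all called higher in the metastasis organoids. In round 2 alone, Anxa10 and Vsig1 were not called by edgeR.

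The families of the members moved in both directions, as did the whole set of genes tested, of which 14.3% were called higher and 16.1% lower. Of 13 mucin genes, 6 were tested, 1 was called higher (Muc13, 2.35 ± 0.84, adjusted p = 0.0495) and 2 lower (Muc1, above, and Muc20, -2.43 ± 0.74, adjusted p = 0.0254). Of 11 claudin genes, 10 were tested, 4 were called higher and 2 lower: Cldn2, a pore-forming claudin, fell by 6.19 ± 0.77 (adjusted p = 0.000185), Cldn6 was higher by 2.74 ± 0.62 (adjusted p = 0.0058) and Cldn3 by 0.58 ± 0.12 (adjusted p = 0.00306). Of 12 annexin genes, 11 were tested, 5 were called higher and 1 lower: Anxa4 was higher by 1.05 ± 0.14 (adjusted p = 0.000327), Anxa11 by 1.04 ± 0.21 (adjusted p = 0.00341) and Anxa7 by 0.50 ± 0.09 (adjusted p = 0.0016). The remaining genes called, named after their values were seen, were Cldn23, Cldn4 and Anxa2 (higher), Anxa3 (lower) and the members Cldn18 and Anxa10. Without Met2 replicate 1 the counts were 2 higher and 2 lower for mucins, 3 and 2 for claudins, and 5 and 2 for annexins.

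Markers of other cells that an organoid from liver could hold differed by list. Of 10 hepatocyte markers 3 were tested and 0 called by edgeR, with 1 at an unadjusted p under 0.05 (Hnf4a -1.44 ± 0.66, Alb -2.03 ± 1.54, Apoa2 -0.30 ± 0.52), and Alb ran from 0 to 5.65 CPM. That count is for metastasis against primary. In Met1 against primary Alb was called higher (4.76 ± 1.08, adjusted p = 0.00714), at 5.65, 1.01 and 2.38 CPM in Met1 and no more than 0.751 CPM in any other library, and it fell by 6.68 ± 1.69 in Met2 against Met1 (adjusted p = 0.0217) and fell by 6.90 ± 1.67 in Met3 against Met1 (adjusted p = 0.0119). Alb and Cldn18 were thus both called higher in Met1 in these 3 comparisons. The hepatocyte list, which includes Hnf4a, an intestinal factor too, summed to 27.8 to 95.5 CPM in Met1 and 1.14 to 31.7 CPM in the other groups. Hnf4a made up most of the Met1 sums, at 21.4, 93.9 and 32.9 CPM in the Met1 libraries. Fibroblast markers summed to 0 to 0.701 CPM outside Met2 replicate 1 and endothelial markers to 0.0673 to 0.548 CPM, and none of either list passed the filter on low counts. Immune markers summed to 4.04 to 29.0 CPM, of which 1 gene, Cd68, was tested and called higher (0.97 ± 0.30, adjusted p = 0.0266; in Met1 against primary 1.66 ± 0.34, adjusted p = 0.00466), while Adgre1 and Lyz2 had no count in any library. Of the 6 epithelial markers Krt8 (1.60 ± 0.30, adjusted p = 0.0021) and Krt19 (0.75 ± 0.19, adjusted p = 0.0112) were higher and Cdh1 fell by 0.49 ± 0.17 (adjusted p = 0.0435), and without Met2 replicate 1, 3 were higher and 0 lower. The part of these markers in the members' changes was not tested.

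Genes flanking Vsig1, Cldn18 and Anxa10 were described by position. Psmd10 and Atg4a, the genes after Vsig1 at 9.0 and 17.4 kb, differed by 0.05 (adjusted p = 0.729) and 0.23 (adjusted p = 0.244) in metastasis against primary and were not called. Mid2, 139.9 kb before Vsig1, was higher by 1.84 (adjusted p = 0.000187). Dzip1l, a cilium gene 20.2 kb from Cldn18 on the opposite strand, fell by 5.96 (adjusted p = 6.66e-05), from 13.6 CPM in Primary2 and 13.7 CPM in Primary3 to 0.599 CPM in Met2 and 0.073 CPM in Met3. Unlike Cldn18, it was lower on average in Met1 (7.02 CPM) than in the primary groups, and this difference was not called (-0.96, adjusted p = 0.231). On the other side of Cldn18, Il20rb, a cytokine receptor gene at 740.5 kb, was higher by 1.27 (adjusted p = 0.00356). Palld and Ddx60, at 154.4 and 18.8 kb from Anxa10, were not called, at -0.22 (adjusted p = 0.443) and 1.20 (adjusted p = 0.13). Within 5 Mb of Cldn18, 16.4% of 61 tested genes were called higher and 16.4% lower. Within 5 Mb of Anxa10, 18.2% of 22 tested genes were called higher and 22.7% lower, and within 5 Mb of Vsig1, 6.25% of 32 higher and 15.6% lower. Over all genes tested the shares were 14.3% higher and 16.1% lower.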

How the data were processed

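The authors deposited estimated counts per gene, all whole numbers, made with Salmon 1.3.0 on mm10 per the submitters' processing notes. No label or header names the annotation release, how transcripts were summed to genes, or whether strand was used. Per the labels, RNA was poly(A)-selected and prepared with a directional kit. Libraries were grouped by their titles. Symbols and positions came from GENCODE M21 (GRCm38) and matched 54096 of 54418 identifiers.

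Genes were kept by edgeR's filterByExpr (14925 genes, 99.9% of counts), scaled by TMM and tested with edgeR 4.0.16 (R 4.3.3; quasi-likelihood F test, 15 libraries in 1 fit, 9 comparisons). Benjamini-Hochberg adjustment ran over all genes kept, separately by comparison, with calls at an adjusted p under 0.05. Each SE was derived from the fitted change and its F statistic (change over root F). Replicates varied by a coefficient of 0.343. Sox2 and Muc6 did not pass the filter and were compared by an exact permutation test. The fit was tested on simulated counts. Estimated counts from multi-mapping reads can be shared between similar genes such as the mucins. Limits at a count of 0 cover counting error only.

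The members and the 12 lists (gastric surface, gastric gland, foregut transcription factor, intestinal identity, mucin, claudin, annexin, epithelial, hepatocyte, fibroblast, immune and endothelial genes) were chosen with earlier results of these data known. All members are named, and from each list up to 3 genes with the smallest p in metastasis against primary, beside neighbours by position. Some listed genes are not reported here. Alternatives were RLE size factors, DESeq2 1.42.0, limma-voom (limma 3.58.1), no low-count filter, CPM of at least 1 in 3 libraries, only the groups compared, a replicate block, and leaving out each library.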

Additional observations from a re-analysis of the deposited data

How the results depend on the processing

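Under the alternatives 1102 member changes kept their direction and their side of the threshold, 47 lost a call, 19 gained one and 20 changed sign, and none of those 20 was called in either fit. The limits are few counts for Cldn18 and Anxa10 in most groups, wide spread in Met2, and 3 libraries a group. The cause of each difference below was not tested. Members called with limma-voom were 0 in metastasis against primary, 0 in Met3 against Primary3, 2 in Met1 against primary, 1 in Met2 against Met1 and 1 in Met3 against Met1. Over all alternatives, limma-voom included, genes called ran from 3665 to 5289 in metastasis against primary and 1413 to 3814 in Met3 against Primary3. They ran from 2152 to 5237 in Met1 against primary, 13 to 3424 in Met2 against Met1 and 1983 to 4388 in Met3 against Met1. DESeq2 called 1 member in Met2 against Primary2 and 1 in the difference between rounds, no filter called 1 (Sox2) in Met2 against Primary2, and only the groups compared gave 0 in Met2 against Met1. Genes called were 2830 (DESeq2) and 139 (only the groups compared) in Met2 against Primary2, 225 (DESeq2) in the difference between rounds, 13 (only the groups compared) in Met2 against Met1, and 44 (DESeq2) and 1 (limma-voom) in Primary3 against Primary2. In Met3 against Met2 they were 588 (DESeq2), 4 (limma-voom), 85 (no filter) and 0 (only the groups compared).

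Leaving out 1 library at a time gave 2 to 5 members called in metastasis against primary, 0 to 1 in Met2 against Primary2, 1 to 3 in Met3 against Primary3, 2 to 5 in Met1 against primary, 1 to 4 in Met2 against Met1, 2 to 4 in Met3 against Met1 and 0 to 0 in the other 3. Genes called ran, in the same order, from 3665 to 5220, 743 to 2181, 1413 to 3619, 2152 to 5197, 595 to 2520 and 1983 to 4336, and from 0 to 15 in the difference between rounds, 0 to 209 in Met3 against Met2 and 0 to 2 in Primary3 against Primary2.

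The main fit did not pair samples by replicate number. Of 30 correlations of deviations between same-numbered libraries of different groups, 10 were over 0.1 (range -0.125 to 0.323). On average 9 of 15 libraries were closest to their own number, so these values do not settle whether the numbers pair the samples. With the replicate block, 0 genes were called in Met3 against Met2, the adjusted p of Tff2 in Met1 against primary was 0.0764, and Anxa10 was called in Met3 against Met1 (adjusted p = 0.022). The block turned Muc5ac in Met3 against Met2 to 1.39.

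Other sign changes were as follows. Limma-voom gave Muc5ac 0.39 in the difference between rounds and 3.68 in Met3 against Met2. In Met2 against Primary2, Muc5ac was -0.64 and Tff1 -0.41 without Met2 replicate 3, and Vsig1 -0.24 without Met2 replicate 2. In the difference between rounds, Muc5ac was 2.04 without Met2 replicate 3, and Tff2 -0.98 without Met3 replicate 3 and -0.17 without Primary2 replicate 1. Anxa10 in Met2 against Met1 was -0.30 without Met2 replicate 2. In Met3 against Met1, Tff2 was -0.21 without Met3 replicate 3 and Vsig1 0.059 without Met1 replicate 2. In Met3 against Met2, Muc5ac was 3.82 without Met2 replicate 3, Tff1 -0.35 without Met3 replicate 3, Tff2 1.10 and Cldn18 0.33 without Met2 replicate 1, Cldn18 0.11 without Met3 replicate 1 and 0.11 without replicate 3, and Anxa10 -0.00045 without Met3 replicate 2. Tff1 in Primary3 against Primary2 was 0.49 without Primary2 replicate 1. The other ends of the leave-one-out ranges of these changes were 7.05 (Muc5ac), 1.79 (Tff1) and 2.06 (Vsig1) in Met2 against Primary2, -5.67 (Muc5ac) and 3.30 (Tff2) in the difference between rounds, 3.61 (Anxa10) in Met2 against Met1, 2.24 (Tff2) and -1.35 (Vsig1) in Met3 against Met1, -1.26 (Muc5ac), 2.08 (Tff1), -3.19 (Tff2), -1.46 (Cldn18) and 3.67 (Anxa10) in Met3 against Met2, and -1.09 (Tff1) in Primary3 against Primary2.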
